A study of Homo sapiens with 15 samples.

Results

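The ribosome biogenesis factors examined here are proteins of the nucleolus that make ribosomal RNA (rRNA), cut and modify it, and assemble it into ribosomal subunits. They were chosen by symbol from a list of 60 genes. The rule used no measured value, but earlier results of these data were known when the list was chosen. Of the 60, 59 were among the 12995 genes of both expression tables. WDR46 was not analysed here. The 59 factors fell into 10 roles: 3 box C/D and 4 box H/ACA ribonucleoproteins, the 2 abundant nucleolar proteins NCL and NPM1, 6 members of the UTP-A and 5 of the UTP-B subcomplex, 4 of the U3 and MPP10 particles, 8 other factors of the small subunit (SSU) processome, 5 factors of late 40S assembly, 19 of 60S assembly and 3 of rDNA transcription.

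RNA of 3 oral cell lines was measured in 15 libraries, 3 in each of 5 groups. OKF6, a normal oral epithelial line, was the reference. SCC15 and SCC25 are oral cancer lines, and both carried Cas9 together with a guide against YBX1 that doxycycline switches on. YBX1 is a DNA- and RNA-binding protein of the cold shock domain family. Cells without doxycycline formed the groups SCC15 +YBX1 and SCC25 +YBX1, whose genotype is labelled wild type, and cells given 1 µg/mL doxycycline for 3 days formed SCC15 -YBX1 and SCC25 -YBX1. The cells were pools sorted for both fluorescent markers of the constructs, not single clones, so a -YBX1 culture may still hold cells with intact YBX1. OKF6 and SCC25 were grown in a serum-free keratinocyte medium while SCC15 cells were kept in DMEM that contained serum. Line and medium therefore cannot be told apart where SCC15 is compared with either. The labels name the YBX1 construct for SCC15 and SCC25 and not for OKF6. Where either cancer line is compared with OKF6, line and carrying the constructs therefore cannot be told apart. No group received doxycycline without the guide against YBX1. Effects of the drug or of cutting by Cas9 therefore cannot be told apart from loss of YBX1, and knockdown below stands for all of these. The labels do not say that the replicates are separate cultures, and p-values then measure only the spread between these libraries, which may be technical.

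Ribosome production begins in the nucleolus, where RNA polymerase I copies the rDNA into a long precursor. Box C/D ribonucleoproteins methylate the precursor and box H/ACA ribonucleoproteins turn uridines into pseudouridines, while the SSU processome, built from the UTP-A, UTP-B, U3 and MPP10 modules, folds and cleaves the part that becomes the 40S subunit. Other factors carry the 60S precursor through the nucleolus and both precursors to the cytoplasm, and many genes of this pathway are known targets of MYC in growing cells.

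Promoter sequence was a feature that the choice of the factors did not use. RefSeq promoter windows (GRCh38.p14, 250 bases before to 50 after the start of the gene) were found for 50 of the 59 factors and for 9888 of the genes tested. The E-box CACGTG, a palindrome and so the same on both strands, is the sequence that MYC and related proteins are known to recognise. It stood in the windows of 21 of the 50 factors (42%), against 10.4% of all windows. Of these 21 factors, 16 held it at or after the annotated start. The following stretches are shown because they place the motif at the start of factors to which the results return. Each is printed 5′ to 3′ along the gene, in lower case with the motif in capitals.
FBL, chr19:39846356-39846385, reverse strand: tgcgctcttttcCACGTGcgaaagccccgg
BYSL, chr6:41921515-41921544, forward strand: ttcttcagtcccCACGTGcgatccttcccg
MRTO4, chr1:19251807-19251836, forward strand: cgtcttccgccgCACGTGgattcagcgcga
GAR1, chr4:109815781-109815810, forward strand: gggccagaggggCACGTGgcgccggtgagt
NOP2, chr12:6568242-6568271, reverse strand: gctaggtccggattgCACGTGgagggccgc
NOP14, chr4:2963374-2963403, reverse strand: tccgcggcccggCACGTGtcttagggtagc
GNL3, chr3:52686026-52686055, forward strand: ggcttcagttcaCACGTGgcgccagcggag
PWP2, chr21:44107388-44107417, forward strand: tgagctgcggcaCACGTGcgacggccgtga

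The first base of the motif lay 6 bases after the start in FBL and GNL3, 14 in MRTO4, 15 in NOP14, 28 in BYSL, 31 in GAR1 and 35 in NOP2, and 1 base after it in PWP2. CCGGAA, the core that ETS factors are known to bind, stood on either strand in 54% of the windows of the factors against 31% of all windows. CCAAT was in 44% against 37%, GGGCGG in 78% against 75.3% and TATAAA in 4% against 5.03%, each read on both strands. A match is a stretch of letters and not a measured site, and the windows were examined after expression values of these libraries had been seen.

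Between 4075290 and 6118501 reads per library were assigned to genes, and 1 read was worth 0.138 to 0.226 CPM, the read count scaled to a library of 1e6 reads. Levels are given as log2 CPM, and differences as log2 differences with the standard error (SE) of limma. YBX1, the targeted gene, stood at 6.74, 6.31 and 6.62 in SCC25 +YBX1 and at 5.26, 4.70 and 3.65 in SCC25 -YBX1, and at 5.11, 5.56 and 6.00 in SCC15 +YBX1 and 3.36, 3.71 and 3.13 in SCC15 -YBX1, with no overlap in either line. Its differences of -2.01 (SE 0.35) in SCC25 and -2.15 (SE 0.35) in SCC15 had limma adjusted p-values of 0.290 and 0.326. SCC15 was labelled as an oral cancer line but had little epithelial keratin transcript. KRT5, KRT14, KRT17 and KRT6A lay between -3.57 and 3.54 in SCC15 +YBX1, 10.24 and 13.75 in OKF6, and 9.51 and 12.99 in SCC25 +YBX1. The 8 oral epithelial markers, these keratins included, summed to log2 CPM 6.52 to 6.95 in SCC15 +YBX1. Most of that sum was the desmosome gene DSP, at 6.79, 6.44 and 6.35. The sums were 14.59 to 15.08 in OKF6 and 13.2 to 14.3 in SCC25 +YBX1. In bulk RNA, fewer expressing cells and less RNA per cell cannot be told apart.

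The factors took 0.780% to 1.04% of the reads in the 6 SCC15 libraries and 0.387% to 0.643% in the other 9. These are shares of reads before scaling, and abundant factors weigh heavily in them. In SCC15 +YBX1 replicate 2, FBL, NCL and NPM1 had 8036, 8230 and 7412 of the 56819 reads of the factors. By the mean of the +YBX1 and OKF6 libraries, 27 factors were highest in SCC15, 17 in SCC25 and 15 in OKF6. The share of all genes highest in each line was not counted, so these numbers show no trait of the factors. Replicates of SCC25 +YBX1 lay closest together, with a median SD of 0.13 over the factors against 0.46 in OKF6. In SCC15 replicate 1 stood low, with 43 of 59 factors at their lowest of 3 libraries in +YBX1 and 53 in -YBX1, against 36.2% and 42.4% of all genes. MYC was at 6.43 and 6.45 in those libraries and between 5.19 and 5.64 in the other 4 of SCC15, and its part in the factor levels was not tested. In SCC25 -YBX1, replicate 2 held the lowest value for 48 of 59 factors, against 35% of all genes. BOP1 and NOP16 were carried by few reads, from 1 to 86 for BOP1 and from 1 to 167 for NOP16, and their replicates lay far apart (SD up to 2.64 and 3.19 on the log2 scale).

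**Figure D1:**
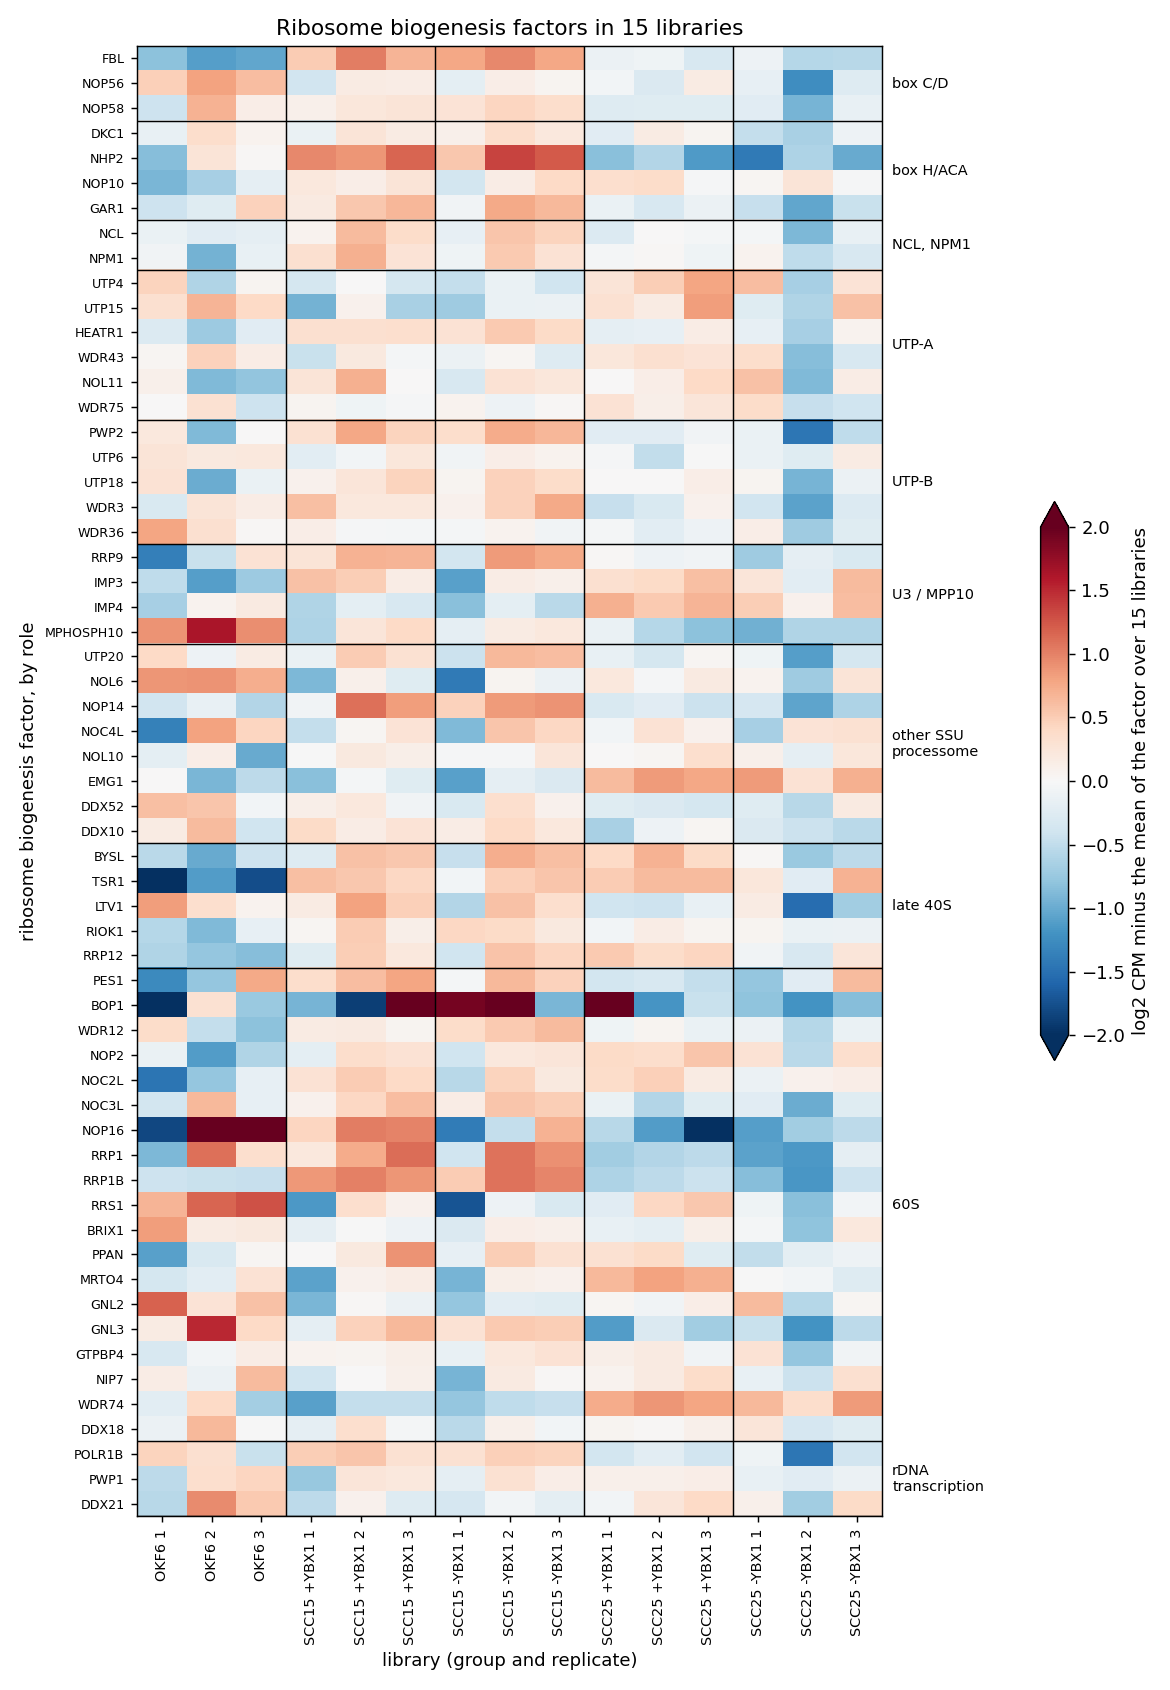
Each row is a factor, ordered by role, and each column a library. Colour gives the log2 CPM of the library minus the mean of the factor over the 15 libraries, with values past 2 drawn in the end colours. TSR1 is blue in all 3 OKF6 libraries, NHP2 and RRP1B are red in the SCC15 libraries, and SCC25 -YBX1 replicate 2 is the bluest column of the SCC25 groups.

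The first question was how the normal and the cancer lines differ. Against OKF6, SCC15 had 17 of 59 factors higher and 6 lower at a limma adjusted p under 0.05, while 36 did not pass. The 28.8% higher stood near the 26.9% of all genes that were higher, and the 10.2% lower was below the 23.4% of all genes. The median difference of the factors was 0.16, beside 0.10 for all genes. When libraries were set to equal medians the calls were 21 higher and 4 lower (all genes 30.6% and 20.5%), and after quantile normalization 20 higher and 5 lower (all genes 29.5% and 23.2%), which shifted the median of all genes to 0.26 and 0.14. In SCC25 against OKF6, which shares the OKF6 libraries, 11 factors were higher (18.6%, against 18.9% of all genes) and 4 lower (6.78%, against 11.3%), with a median of 0.05 beside 0.13 for all genes. Quantile normalization moved these medians to -0.09 and -0.05, with 9 factors higher and 5 lower (all genes 15.4% and 14.1%).

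Between the cancer lines, SCC15 had 7 factors higher than SCC25 (11.9%, against 20% of all genes) and 6 lower (10.2%, against 23.6%). The median difference was 0.14, beside -0.01 for all genes. These counts moved with the scaling, and the number higher also rose when only the groups compared were fitted (given at the end). Equal medians gave 12 higher and 4 lower (all genes 23.4% and 20.7%) and quantile normalization 18 higher and 3 lower (all genes 26.4% and 21.3%), with all-gene medians of 0.14 and 0.17. Values of SCC15 and SCC25 did not overlap, with SCC15 above, for 21 factors (35.6%, against 32.5% of all genes), and with SCC15 below for 9 factors (against 34.1% of all genes).

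**Figure D2:**
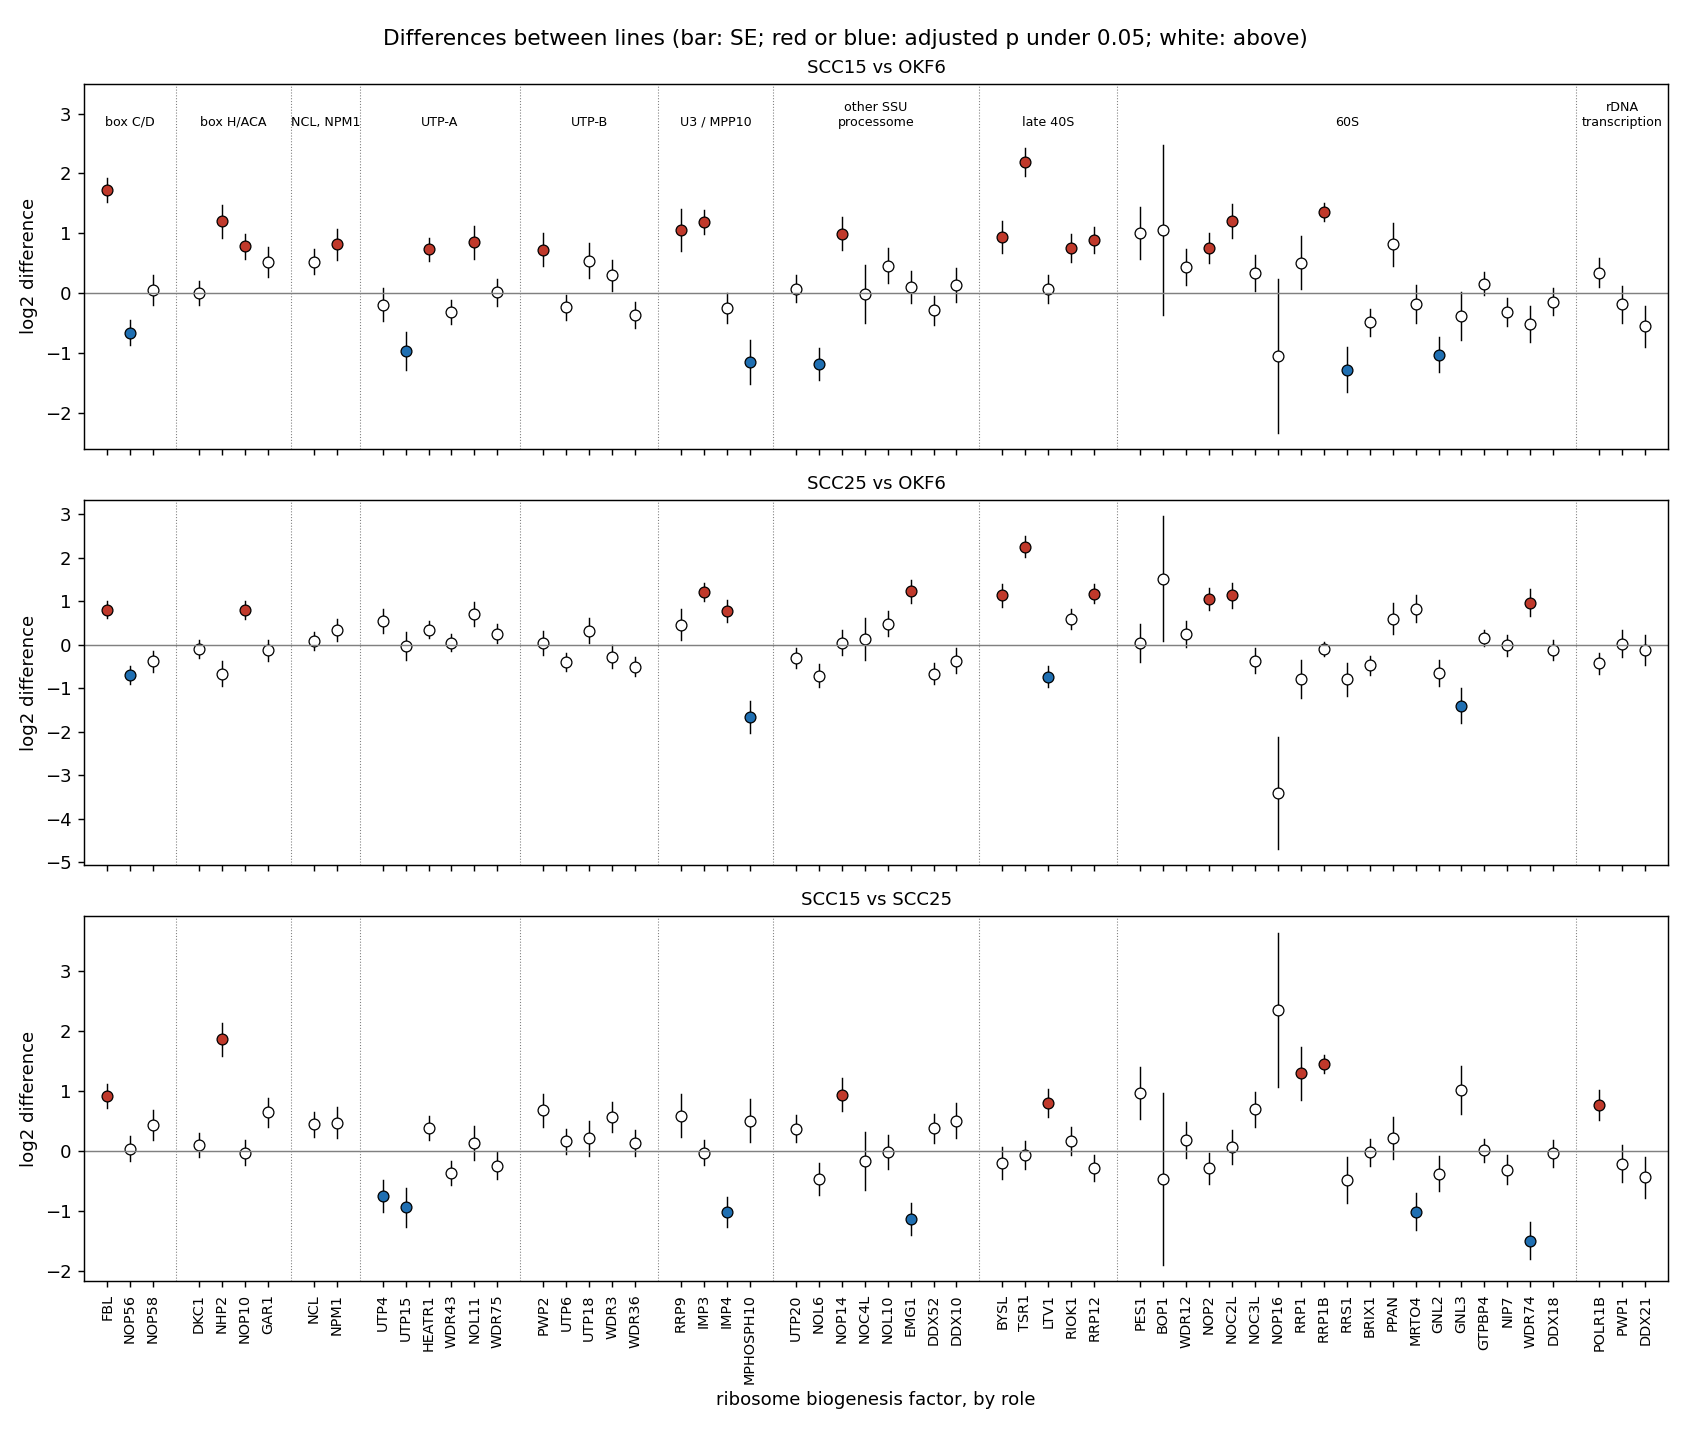
Points are the log2 differences of the factors between lines, bars the SE, and filled points have an adjusted p under 0.05 (red higher, blue lower in the line named first). In late 40S assembly TSR1 stands at 2.19 and 2.25 against OKF6, and points of 60S assembly lie on both sides of 0.

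Of the 5 factors of late 40S assembly, 4 were higher in SCC15 than in OKF6 (all genes 26.9%), and 3 were higher in SCC25 (all genes 18.9%), with 1 lower. TSR1, a GTPase-like factor of the 40S precursor (chromosome 17, 2322396 to 2336657 of hg38, reverse strand, 15 exons), was at 4.73, 5.71 and 5.06 in OKF6, 7.44, 7.37 and 7.25 in SCC15 +YBX1 and 7.34, 7.46 and 7.46 in SCC25 +YBX1. The cancer lines overlapped each other and lay clear of OKF6, 4.56-fold higher in SCC15 (log2 difference 2.19, SE 0.23, limma adjusted p 1.91e-05) and 4.77-fold higher in SCC25 (2.25, SE 0.23, adjusted p 6.77e-05). BYSL, the bystin protein that 40S precursors need, read 5.34, 4.87 and 5.46 in OKF6, 5.62, 6.47 and 6.41 in SCC15 and 6.27, 6.57 and 6.26 in SCC25. Both cancer lines were above every OKF6 library, by 0.94 (SE 0.26, adjusted p 0.0121) and 1.14 (SE 0.26, adjusted p 0.00840), and the SCC15 call was lost without SCC15 +YBX1 replicate 2 (adjusted p 0.0557) or replicate 3 (0.0537). RRP12, which takes part in the export of both precursors, was at 5.25, 5.08 and 5.01 in OKF6, 5.61, 6.35 and 6.06 in SCC15 and 6.38, 6.22 and 6.28 in SCC25. It was higher in both, by 0.89 (adjusted p 0.00521) and 1.18 (adjusted p 0.00242), and kept these calls without any single library. RIOK1, an atypical kinase that acts on the last 40S precursors, was higher in SCC15 by 0.76 (SE 0.23, adjusted p 0.0180), a call lost without SCC15 +YBX1 replicate 2 (0.0797). LTV1, a scaffold removed before the 40S subunit matures, went the other way in SCC25. Its levels were 7.22, 6.72 and 6.46 in OKF6, 6.55, 7.19 and 6.87 in SCC15 and 6.00, 5.97 and 6.24 in SCC25, lower in SCC25 than in OKF6 by 0.73 on the log2 scale (limma log2 difference -0.73, adjusted p 0.0393) and higher in SCC15 than in SCC25 by 0.80 (adjusted p 0.0191). The first of these calls was lost without OKF6 replicate 1 or 2, SCC15 +YBX1 replicate 3 or any SCC25 +YBX1 replicate (adjusted p 0.0556 to 0.124), and the second without SCC15 +YBX1 replicate 2 or 3 or SCC25 +YBX1 replicate 1 or 2 (0.0540 to 0.0819).

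**Figure D3:**
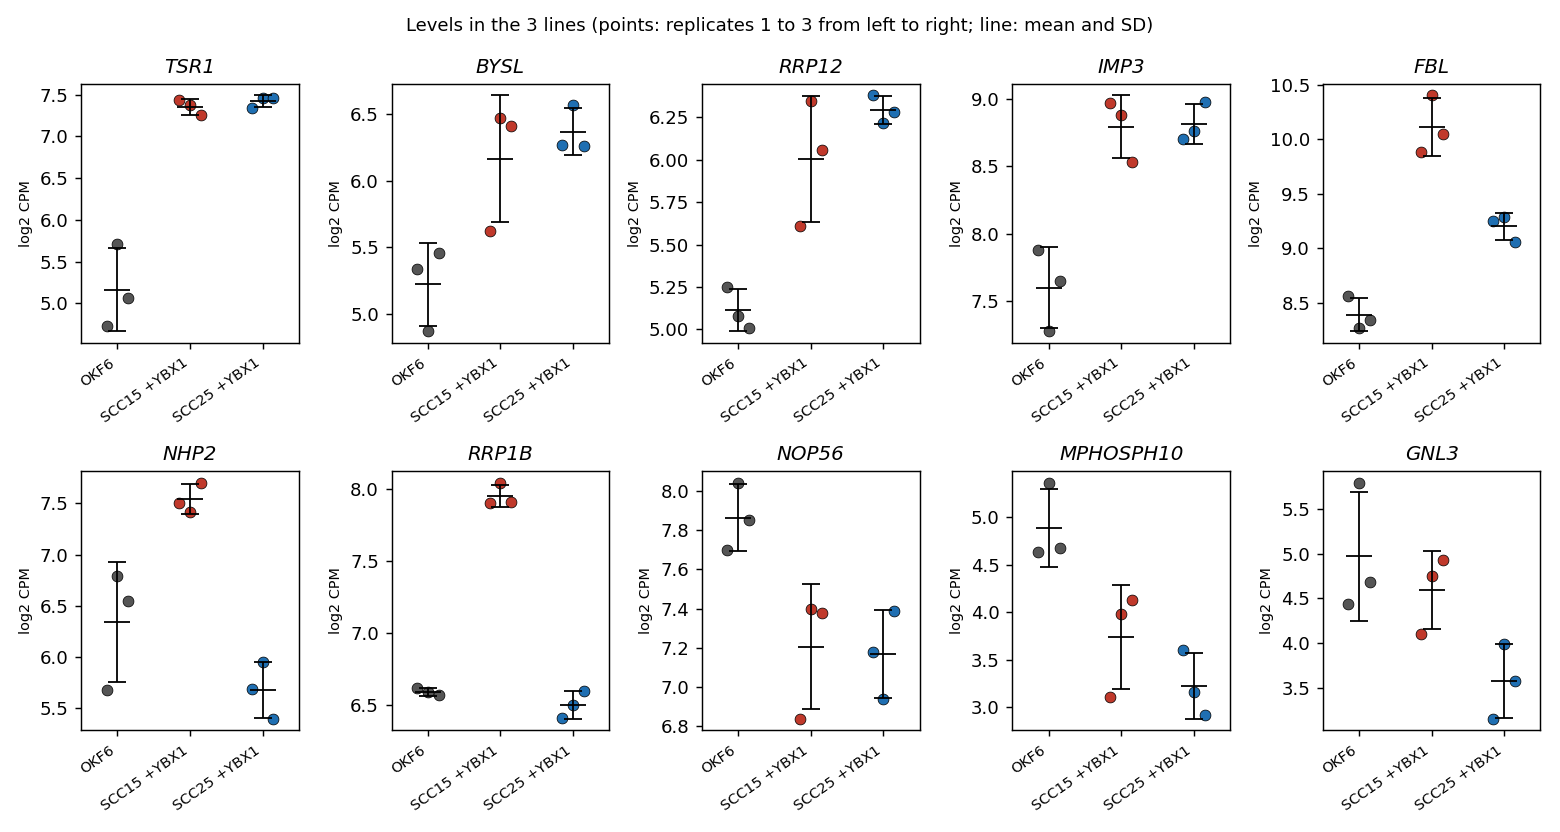
Levels in log2 CPM of 10 factors in OKF6, SCC15 +YBX1 and SCC25 +YBX1, with each replicate as a point and the mean and SD as lines. The vertical axes differ between panels and do not start at 0. TSR1, BYSL, RRP12 and IMP3 lie above OKF6 in both cancer lines, NHP2 and RRP1B in SCC15, and NOP56 and MPHOSPH10 lie below OKF6 in both.

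The 3 box C/D proteins, which form the methylation particle together, did not move together. FBL, the fibrillarin methyltransferase (chromosome 19, 39834458 to 39846379, reverse strand, 9 exons), was at 8.56, 8.27 and 8.34 in OKF6, 9.88, 10.40 and 10.05 in SCC15 and 9.25, 9.29 and 9.06 in SCC25. The 3 lines formed separate steps without overlap. SCC15 exceeded OKF6 3.30-fold (1.72, SE 0.20, adjusted p 3.50e-05) and SCC25 1.88-fold (0.91, SE 0.20, adjusted p 0.00362), and SCC25 exceeded OKF6 by 0.81 (SE 0.20, adjusted p 0.0115), the last call being lost without SCC25 +YBX1 replicate 2 (0.0543). NOP56, a core scaffold of the same particle, was at 7.70, 8.04 and 7.85 in OKF6, 6.84, 7.40 and 7.38 in SCC15 and 7.18, 6.94 and 7.39 in SCC25. Every cancer library lay below every OKF6 library, with differences of -0.66 (SE 0.21, adjusted p 0.0219) and -0.70 (SE 0.21, adjusted p 0.0280). The NOP56 call in SCC15 was lost without OKF6 replicate 2 (0.0579) or SCC15 +YBX1 replicate 1 (0.0774), and that in SCC25 without OKF6 replicate 2 or 3 or SCC25 +YBX1 replicate 1 or 2 (0.0598 to 0.118). NOP58, the partner of NOP56, ranged from 6.31 to 7.42 in OKF6, 6.83 to 6.99 in SCC15 and 6.48 to 6.49 in SCC25 and passed in no comparison.

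Among the box H/ACA proteins, NHP2 separated the cancer lines. NHP2, an RNA-binding subunit of the pseudouridylation particle (chromosome 5, 178149463 to 178153894, reverse strand), was at 5.68, 6.79 and 6.55 in OKF6, 7.50, 7.42 and 7.70 in SCC15 and 5.69, 5.95 and 5.40 in SCC25. SCC15 stood above every library of the other lines, 3.63-fold above SCC25 (1.86, SE 0.28, adjusted p 0.000297) and 2.30-fold above OKF6 (1.2, SE 0.28, adjusted p 0.00426). NOP10, a small subunit of the same particle, was at 6.88, 7.13 and 7.61 in OKF6, 8.0, 7.92 and 8.05 in SCC15 and 8.12, 8.15 and 7.77 in SCC25. It was higher in both cancer lines, by 0.78 (adjusted p 0.0102) and 0.81 (adjusted p 0.0158), the SCC25 call being lost without SCC25 +YBX1 replicate 1 (0.0636) or 2 (0.0696). DKC1, the pseudouridine synthase itself, differed from OKF6 by 0.00 in SCC15 and -0.10 in SCC25 (SE 0.20 in each), and GAR1, the fourth subunit, by 0.52 and -0.13, none past the threshold.

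NPM1, a chaperone of the outer nucleolus, was higher in SCC15 than in OKF6, with 9.89, 10.29 and 9.85 against 9.51, 8.63 and 9.43 (difference 0.81, SE 0.26, limma adjusted p 0.0220). The groups did not overlap, but the call was lost without OKF6 replicate 2 (0.0522) or SCC15 +YBX1 replicate 2 (0.0916). NCL, the RNA-binding protein nucleolin, was at 9.68, 9.58 and 9.63 in OKF6, 9.88, 10.44 and 10.17 in SCC15 and 9.54, 9.82 and 9.77 in SCC25. SCC15 lay above OKF6 without overlap, yet the difference of 0.53 did not pass.

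Within the SSU processome, 2 of 6 UTP-A subunits were higher and 1 lower in SCC15 against OKF6 (all genes 26.9% and 23.4%). Of 5 UTP-B subunits, 1 was higher there and 0 lower. In SCC25 against OKF6, 0 of either subcomplex passed (all genes 18.9% higher and 11.3% lower). In SCC15 against SCC25, 2 UTP-A subunits were lower (all genes 23.6%), and no UTP-B subunit passed. HEATR1, the large UTP-A scaffold that also bears on RNA polymerase I transcription, was at 5.91, 5.47 and 5.97 in OKF6 and 6.51, 6.51 and 6.53 in SCC15, higher in SCC15 by 0.73 (SE 0.19, adjusted p 0.00882). UTP15 of the same subcomplex was lower in SCC15, at 3.23, 4.26 and 3.52 against 4.49, 4.85 and 4.57 in OKF6 and 4.48, 4.34 and 5.00 in SCC25, with differences of -0.97 (SE 0.32, adjusted p 0.0284) and -0.93 (SE 0.32, adjusted p 0.0373). Every SCC15 library was below every library of the other lines. The UTP15 calls were lost without OKF6 replicate 2 or SCC15 +YBX1 replicate 1 or 3 (0.0665 to 0.0983, against OKF6) and without SCC15 +YBX1 replicate 1 or 3 or any SCC25 +YBX1 replicate (0.0534 to 0.150, against SCC25). UTP4 was lower in SCC15 than in SCC25 by 0.74 on the log2 scale (log2 difference -0.74, adjusted p 0.0469), a call lost without OKF6 replicate 3 and without any single library of the 2 cancer lines (0.0566 to 0.165). NOL11 of UTP-A and PWP2 of UTP-B were higher in SCC15 than in OKF6, by 0.85 (adjusted p 0.0270) and 0.73 (adjusted p 0.0490). NOL11 was lost without OKF6 replicate 2 or 3 or SCC15 +YBX1 replicate 1 or 2 (0.0577 to 0.111), and PWP2 without any single OKF6, SCC15 or SCC25 library other than OKF6 replicate 1 (0.0510 to 0.163). WDR43, WDR75, UTP6, UTP18, WDR3 and WDR36 passed in none of these comparisons.

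IMP3 and MPHOSPH10, which bind each other in the MPP10 complex with IMP4, moved in opposite directions. IMP3 (chromosome 15, 75639085 to 75648706, reverse strand, 1 exon) was at 7.88, 7.28 and 7.65 in OKF6, 8.97, 8.88 and 8.53 in SCC15 and 8.70, 8.76 and 8.98 in SCC25. The cancer lines overlapped each other above OKF6, by 1.19 (SE 0.21, adjusted p 0.000680) and 1.21 (SE 0.21, adjusted p 0.00167). MPHOSPH10, the subunit that gives the complex its name (chromosome 2, 71130310 to 71150101, forward strand, 11 exons), was at 4.63, 5.36 and 4.67 in OKF6, 3.11, 3.98 and 4.13 in SCC15 and 3.60, 3.16 and 2.92 in SCC25. Both cancer lines lay below OKF6, 2.22-fold in SCC15 (-1.15, SE 0.36, adjusted p 0.0225) and 3.16-fold in SCC25 (-1.66, SE 0.36, adjusted p 0.00649). The SCC15 call on MPHOSPH10 was lost without OKF6 replicate 2 (0.0664) or SCC15 +YBX1 replicate 1 (0.0824), whereas the SCC25 call held without any single library. IMP4 was at 4.63, 5.36 and 5.47 in OKF6, 4.69, 5.09 and 4.97 in SCC15 and 6.01, 5.81 and 5.97 in SCC25. SCC25 stood above both other lines, by 0.78 over OKF6 (adjusted p 0.0387) and by -1.02 for SCC15 against SCC25 (SE 0.25, adjusted p 0.00744), the first call being lost without OKF6 replicate 1, SCC15 +YBX1 replicate 2 or 3 or any SCC25 +YBX1 replicate (0.0535 to 0.116). RRP9, a U3-specific protein, was at 4.12, 5.05 and 5.79 in OKF6 and 5.75, 6.19 and 6.17 in SCC15, overlapping, with a difference of 1.05 (SE 0.35, adjusted p 0.0293) that was lost without OKF6 replicate 1 (0.0501) or SCC15 +YBX1 replicate 2 (0.0911) or 3 (0.0868).

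Of the 8 other processome factors, 1 was higher and 1 lower in SCC15 against OKF6 (all genes 26.9% and 23.4%). In SCC25 against OKF6, 1 was higher and 0 lower (all genes 18.9% and 11.3%). In SCC15 against SCC25, 1 was higher and 1 lower (all genes 20% and 23.6%). NOP14 was higher in SCC15, at 7.03, 8.20 and 7.94 against 6.72, 6.96 and 6.52 in OKF6 and 6.80, 6.87 and 6.67 in SCC25. These were differences of 0.99 (SE 0.28, adjusted p 0.0118) and 0.94 (SE 0.28, adjusted p 0.0182), the first lost without SCC15 +YBX1 replicate 2 (0.0545) and the second without SCC15 +YBX1 replicate 2 or 3 or SCC25 +YBX1 replicate 1 or 3 (0.0513 to 0.0787). NOL6, the human counterpart of yeast Utp22, was lower in SCC15 than in OKF6, at 3.89, 4.89 and 4.55 against 5.67, 5.68 and 5.52, a 2.27-fold difference (-1.18, SE 0.26, adjusted p 0.00345) that held without any single library. EMG1, a methyltransferase of the 18S rRNA, was highest in SCC25, at 8.09, 8.32 and 8.24 against 7.47, 6.55 and 6.94 in OKF6 and 6.63, 7.43 and 7.22 in SCC15. Its SCC25 libraries overlapped neither other line, with differences of 1.23 from OKF6 (SE 0.27, adjusted p 0.00611) and of -1.12 for SCC15 against SCC25 (SE 0.27, adjusted p 0.00609). UTP20, NOC4L, NOL10, DDX52 and DDX10 did not pass.

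Of the 19 factors of 60S assembly, 3 were higher and 2 lower in SCC15 against OKF6 (all genes 26.9% and 23.4%). In SCC25 against OKF6, 3 were higher and 1 lower (all genes 18.9% and 11.3%), and 2 were higher and 2 lower in SCC15 against SCC25 (all genes 20% and 23.6%). RRP1B, a nucleolar protein of the 60S precursor (chromosome 21, 43659560 to 43696079, forward strand, 16 exons), had among the tightest values, at 6.62, 6.59 and 6.57 in OKF6, 7.90, 8.04 and 7.91 in SCC15 and 6.41, 6.50 and 6.60 in SCC25. SCC15 was 2.56-fold above OKF6 (1.35, SE 0.15, adjusted p 2.80e-05) and 2.73-fold above SCC25 (1.45, SE 0.15, adjusted p 2.26e-05). RRP1, its paralogue on the same chromosome, was at 3.85, 5.86 and 5.09 in OKF6, 4.97, 5.49 and 5.87 in SCC15 and 4.06, 4.16 and 4.23 in SCC25. It was higher in SCC15 than in SCC25 by 1.3 (SE 0.44, adjusted p 0.0343), a call lost without SCC15 +YBX1 replicate 2 or 3 or any SCC25 +YBX1 replicate (0.0747 to 0.125). NOC2L was at 5.13, 5.83 and 6.43 in OKF6, 6.89, 7.11 and 6.99 in SCC15 and 6.96, 7.08 and 6.76 in SCC25, higher in both cancer lines by 1.2 (adjusted p 0.00468) and 1.14 (adjusted p 0.0122), the second call being lost without SCC25 +YBX1 replicate 2 (0.0527). NOP2, a methyltransferase of the 28S rRNA, exceeded OKF6 in SCC25 by 1.04 (adjusted p 0.0109) and in SCC15 by 0.76 (adjusted p 0.0288), the latter lost without OKF6 replicate 2 or 3 or SCC15 +YBX1 replicate 2 or 3 (0.0605 to 0.102).

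Lower in SCC15 than in OKF6 were RRS1, which helps to bring the 5S particle into the 60S precursor, and GNL2, a nucleolar GTPase. RRS1 was at 3.62, 5.11 and 4.86 against 5.45, 5.93 and 6.04 (-1.27, SE 0.38, adjusted p 0.0174) and GNL2 at 4.76, 5.70 and 5.55 against 6.86, 5.95 and 6.26 (-1.02, SE 0.29, adjusted p 0.0139). Neither overlapped OKF6, and the calls were lost without OKF6 replicate 3 (0.0558) or SCC15 +YBX1 replicate 1 (0.0501) for RRS1 and without SCC15 +YBX1 replicate 1 (0.0516) for GNL2. GNL3, the GTPase nucleostemin, was lower in SCC25, at 3.16, 3.99 and 3.58 against 4.44, 5.79 and 4.68 in OKF6 (-1.40, SE 0.40, adjusted p 0.0225), a call lost without OKF6 replicate 2 (0.0565) or SCC25 +YBX1 replicate 1 (0.0874) or 3 (0.0633). WDR74 was highest in SCC25, at 5.48, 5.62 and 5.54 against 4.53, 5.14 and 4.07 in OKF6 and 3.66, 4.26 and 4.26 in SCC15. It passed against OKF6 (0.97, adjusted p 0.0338) and, for SCC15 against SCC25, at -1.49 (SE 0.30, adjusted p 0.00236), the former lost without OKF6 replicate 3 or any SCC25 +YBX1 replicate (0.0823 to 0.107). MRTO4, which holds the place of a stalk protein on the 60S precursor, was lower in SCC15 than in SCC25 (-1.0, SE 0.31, adjusted p 0.0235), a call lost without SCC15 +YBX1 replicate 1 or any SCC25 +YBX1 replicate (0.0563 to 0.0736).

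PES1, BOP1 and WDR12 form the PeBoW complex that 60S maturation needs, and none of them passed between the lines in the main fit. PES1 was at 3.53, 4.03 and 5.57 in OKF6, 5.15, 5.42 and 5.59 in SCC15 and 4.44, 4.48 and 4.33 in SCC25. WDR12 ranged from 3.78 to 4.96 in OKF6, 4.65 to 4.78 in SCC15 and 4.46 to 4.66 in SCC25. BOP1 ran from -1.80 to 3.94 over the OKF6 and +YBX1 libraries and supports no statement on the complex. BRIX1, another 60S factor, was at 6.58, 5.90 and 5.93 in OKF6, 5.56, 5.74 and 5.64 in SCC15 and 5.60, 5.55 and 5.86 in SCC25, below OKF6 without overlap in both cancer lines, although neither difference passed. NOP16 differed most in size between SCC25 and OKF6 (-3.40) without passing, since OKF6 read -0.58, 5.07 and 4.82. NOC3L, PPAN, GTPBP4, NIP7 and DDX18 also passed in none of the comparisons of lines.

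In rDNA transcription, POLR1B, the second-largest subunit of RNA polymerase I, was higher in SCC15 than in SCC25, at 6.01, 6.08 and 5.82 against 5.15, 5.31 and 5.14 (0.77, SE 0.25, adjusted p 0.0268). The groups did not overlap, and the call was lost without SCC15 +YBX1 replicate 1 or 2 or any SCC25 +YBX1 replicate (0.0549 to 0.0853). DDX21, a helicase that binds both rDNA and precursor rRNA, was at 7.44, 8.95 and 8.53 in OKF6, 7.47, 8.08 and 7.74 in SCC15 and 7.94, 8.24 and 8.40 in SCC25, and neither it nor PWP1 passed.

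Position in the genome was a further property not used in choosing the factors, and neighbouring genes were examined after the values had been seen. The 110 tested genes within 5 Mb of TSR1 had a median difference of 1.00 in SCC15 and 1.19 in SCC25 against OKF6, where all genes had 0.10 and 0.13. The 55 neighbours of RRP1B and RRP1 had a median of 0.90 in SCC15 against SCC25, where all genes had -0.01, the 71 of NOP14 had 0.92, and the 190 of WDR74 had -0.67. Near NHP2 the median of 66 genes was 1.03 in SCC15 against OKF6 and 0.57 against SCC25. FBL and MPHOSPH10 lay among genes with medians close to those of all genes, 0.17 in SCC15 and 0.04 in SCC25 for the 172 neighbours of FBL and 0.28 and 0.09 for the 79 of MPHOSPH10. Neighbours of other factors went the other way. In SCC15 against OKF6, NOP10 stood at 0.78 and its 26 neighbours at a median of -0.82, and NOL11 at 0.85 and its 40 neighbours at -0.21. In SCC15 against SCC25, POLR1B stood at 0.77 and its 32 neighbours at -0.60. The neighbourhoods named here are examples, and the part of the neighbourhood in these differences was not tested.

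Reads come from transcript ends, and the strand setting of the counting is not given in the sources used here. The last 500 transcript bases of NHP2, NOC2L, GNL3, GNL2, EMG1, HEATR1, NOP14, WDR74, IMP3, POLR1B, GTPBP4, DDX52, NOP58 and WDR3 overlapped a gene on the opposite strand, RMND5B for NHP2 and LPCAT3 for EMG1, and those of NOP2, RRS1 and PPAN a gene on the same strand, so their values may include reads of that gene. Among pieces of the 3′ end that mapped to their own gene, none matched another place as well for 57 of the 59 factors. The exceptions were NOP58 and UTP18. Pieces that did not map to their own gene were not compared, so a match of theirs elsewhere would have been missed. Only 45 of 86 pieces were compared for NPM1, 42 for UTP4, 48 for DDX52 and 55 for PWP2.

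Outside the 59 factors, 95 further ribosome biogenesis genes were listed. In SCC15 against OKF6, 23 were higher and 12 lower (all genes 26.9% and 23.4%), with SBDS (a factor of the last 60S steps) at -2.95, SENP3 at 2.29 and NVL at 2.20. In SCC25 against OKF6, 22 were higher and 9 lower (all genes 18.9% and 11.3%), led by SBDS at -2.71, TAF1B at -2.58 and PELP1 at 2.08. Between the cancer lines, 12 were higher and 10 lower in SCC15 (all genes 20% and 23.6%), led by EIF6 at -1.84, ZNHIT6 at 1.62 and SHQ1 at 1.57. MYC was lower in SCC15 than in OKF6 (-1.09, limma adjusted p 0.0114) and SCC25 (-0.98, adjusted p 0.0229) and stood at -0.11 in SCC25 against OKF6, not passing. Of 15 proliferation markers, 5 were higher and 1 lower in SCC15 against OKF6, 2 and 2 in SCC25 against OKF6, and 4 and 0 in SCC15 against SCC25. Of 28 interferon-stimulated genes, 1 was higher and 23 lower in SCC15 against OKF6, 6 and 1 in SCC25 against OKF6, and 0 and 26 in SCC15 against SCC25. The shares of all genes just given for each comparison apply to the proliferation and interferon lists too. The factors with the E-box had a median difference of 0.33 in SCC15 and 0.05 in SCC25 against OKF6, and those with a window but no E-box 0.16 and 0.08.

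The second question was whether the factors differed under knockdown, in which doxycycline and loss of YBX1 cannot be told apart. In SCC25, no factor and none of the 12995 genes, YBX1 included, passed in limma at an adjusted p under 0.05, a call rate of 0% in each direction. At an unadjusted p under 0.05, 4 factors were lower (6.78%, against 1.72% of all genes) and 0 higher (0%, against 1.36%). Below 0 were 55 of the 59 differences (93.2%, against 53.4% of all genes), with a median of -0.26 beside -0.02, and the median of each of the 10 roles was below 0, from -0.41 in UTP-A to -0.16 in the other processome factors. The shift came mainly from 1 library. By replicate number, the median of the factors was -0.03, -0.61 and -0.10 in pairs 1, 2 and 3, with 31, 56 and 40 of 59 lower. Without SCC25 -YBX1 replicate 2, 38 of 59 were below 0 (64.4%, against 52.9% of all genes) and the median was -0.08, whereas it was between -0.35 and -0.25 when any other SCC25 library was left out.

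**Figure D4:**
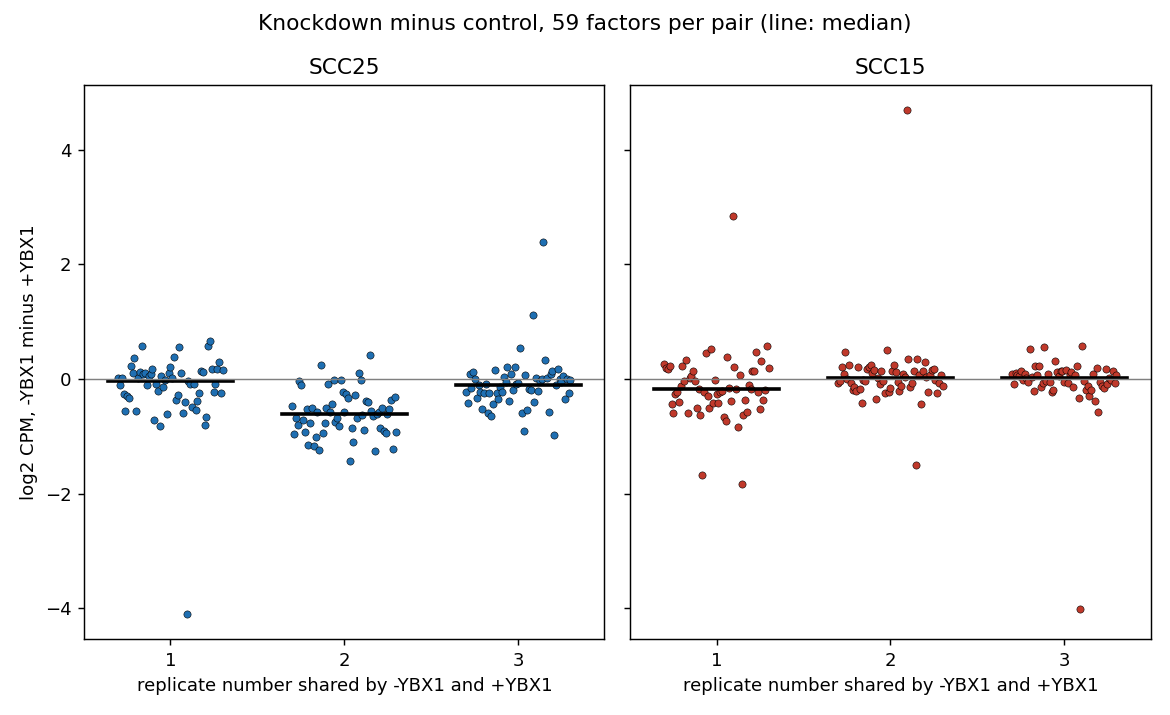
Each point is a factor, given as the log2 CPM of -YBX1 minus that of the +YBX1 library with the same replicate number (horizontal axis), and black lines are medians. In SCC25 the cloud of pair 2 sits at a median of -0.61 and pairs 1 and 3 at -0.03 and -0.10, while the SCC15 medians lie between -0.18 and 0.03.

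Other genes moved with that library. The 28 interferon-stimulated genes listed had a median difference of 0.50, 1.46 and 0.23 in pairs 1, 2 and 3, with 26, 28 and 19 of 28 higher, and without SCC25 -YBX1 replicate 2 their median fell from 0.69 to 0.08. The 95 other biogenesis genes showed 0.06, -0.42 and -0.05, and proliferation markers -0.03, -0.21 and -0.13. In that library the 10 genes with the most reads held 16.2% of reads and the factors 0.387%. The part of these in the lower factor levels was not tested. YBX1 itself differed by -1.48, -1.60 and -2.96 in pairs 1, 2 and 3.

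The 4 factors with an unadjusted p under 0.05 were BYSL, MRTO4, DKC1 and WDR43. BYSL was at 6.27, 6.57 and 6.26 in SCC25 +YBX1 and 5.90, 5.14 and 5.35 in SCC25 -YBX1 (-0.90, SE 0.31, unadjusted limma p 0.0121, adjusted p 1.00), and the difference ran from -1.12 to -0.74 when any SCC25 library was left out. MRTO4 was at 6.89, 7.05 and 6.95 against 6.23, 6.19 and 5.98 (-0.83, SE 0.31, unadjusted limma p 0.0194), and its difference stayed between -0.88 and -0.75 when any SCC25 library was left out, replicate 2 included. For BYSL and MRTO4 every -YBX1 library lay below every +YBX1 library. DKC1 was at 7.54, 7.92 and 7.82 against 7.28, 7.11 and 7.66, lower in all 3 pairs but overlapping (-0.41, SE 0.17, unadjusted limma p 0.0337). WDR43, a UTP-A subunit, was at 6.72, 6.81 and 6.77 against 6.84, 5.64 and 6.17, lower in pairs 2 and 3 (-0.55, SE 0.25, unadjusted limma p 0.0468). The replicate number was also fitted as a block, with an effect of each number shared by both lines. This is not a pairing within each line, and same-numbered +YBX1 libraries of SCC15 and SCC25 had correlations of 0.0116, -0.0388 and -0.207. With this block WDR43 had an unadjusted limma p of 0.0611, while BYSL (0.0114), MRTO4 (0.00758) and DKC1 (0.0238) stayed under 0.05. Levels without overlap and lower under knockdown were found for 8 factors (13.6%, against 3.76% of all genes), namely BYSL, GAR1, MRTO4, NOC2L, NOP2, PWP1, RRP12 and RRP9, and 0 were higher without overlap (0%, against 3.56%). Lower in all 3 pairs were 17 factors (28.8%, against 11.5% of all genes).

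**Figure D5:**
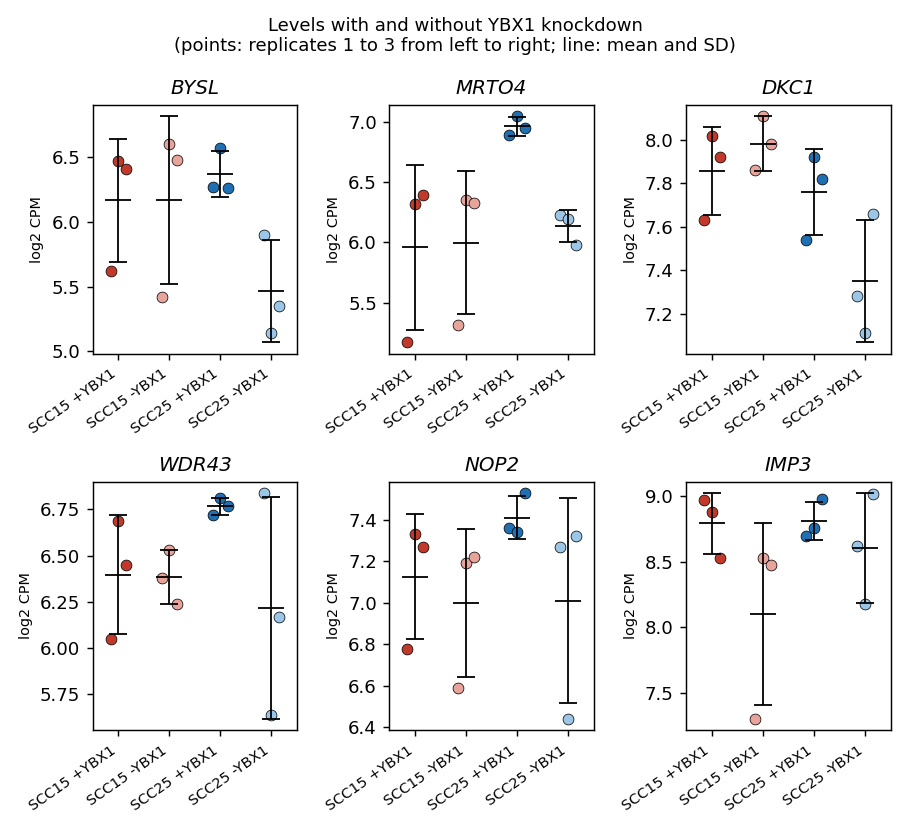
Levels in log2 CPM of 6 factors in the SCC15 and SCC25 groups without (+YBX1) and with (-YBX1) doxycycline, with replicates as points and the mean and SD as lines. The vertical axes differ and do not start at 0. In SCC25, BYSL and MRTO4 separate the groups, and DKC1, WDR43 and IMP3 overlap. NOP2 has its -YBX1 replicate 2 at 6.44, well below the other -YBX1 values of 7.27 and 7.32.

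The remaining anchors of the pathway had smaller differences in SCC25 that did not pass, given here with their limma SE. FBL stood at -0.23 (0.18), NOP56 at -0.49 (0.26), NOP58 at -0.19 (0.18) and GAR1 at -0.46 (0.23) among the ribonucleoproteins, NPM1 at -0.22 (0.20) and NCL at -0.27 (0.25). In the processome, UTP4 stood at -0.43 (0.27), HEATR1 at -0.19 (0.18) and RRP9 at -0.34 (0.28). In 60S assembly, WDR12 stood at -0.21 (0.19), BRIX1 at -0.14 (0.23), GNL3 at -0.02 (0.30) and PES1 at 0.27 (0.30), and BOP1 at -1.51 with an SE of 1.32. LTV1 stood at -0.36 (0.37), RIOK1 at -0.12 (0.16), DDX21 at -0.26 (0.24) and POLR1B at -0.31 (0.27). By promoter, the 21 factors with an E-box had a median of -0.35 with 20 below 0, and the 29 with a window but no E-box a median of -0.22 with 27 below 0.

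In SCC15 the factors lay around 0 under knockdown. No factor and no gene passed in limma (0% in each direction), and at an unadjusted p under 0.05, 1 factor was lower (1.69%, against 1.22% of all genes) and 0 higher (0%, against 1.11%). Below 0 were 31 of 59 (52.5%, against 51.3% of all genes), with a median of -0.01, the same to 2 decimals as that of all genes, and pair medians of -0.18, 0.01 and 0.03. The direction hung on the replicate 1 libraries, since 46 of 59 were below 0 without SCC15 +YBX1 replicate 1 (median -0.14) and 13 of 59 without SCC15 -YBX1 replicate 1 (median 0.13). Leaving out another SCC15 library gave 22 (without +YBX1 replicate 2), 25 (+YBX1 replicate 3), 41 (-YBX1 replicate 2) and 39 (-YBX1 replicate 3) below 0. IMP3 was the factor with an unadjusted p under 0.05, at 8.97, 8.88 and 8.53 in +YBX1 and 7.30, 8.53 and 8.48 in -YBX1 (-0.69, SE 0.29, unadjusted limma p 0.0337). Its -YBX1 replicate 1 stood more than 1 log2 unit below the others, and the difference was -0.29 without it. BYSL, at 5.62, 6.47 and 6.41 against 5.42, 6.60 and 6.48, and MRTO4, at 5.17, 6.32 and 6.39 against 5.31, 6.35 and 6.33, overlapped in SCC15.

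Other anchors in SCC15 stood between -0.37 for LTV1 (SE 0.37) and 0.38 for WDR12 (SE 0.19), apart from BOP1 at 1.17 (SE 1.32). FBL stood at 0.09, NOP56 at 0.02, NOP58 at 0.16, DKC1 at 0.13, GAR1 at -0.01, NPM1 at -0.20 and NCL at -0.07. UTP4 was at -0.10, HEATR1 at 0.08, RRP9 at -0.13, PES1 at -0.23, BRIX1 at 0.08, GNL3 at 0.13, RIOK1 at 0.11, DDX21 at 0.04 and POLR1B at -0.04, and none of these passed.

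The difference between the knockdown effects of the lines was tested as an interaction, SCC25 minus SCC15. No factor and no gene passed in limma (0% in each direction). At an unadjusted p under 0.05, 1 factor was above 0 (1.69%, against 1.12% of all genes) and 2 below (3.39%, against 1.15%). These were NOP16 at 1.97 (SE 0.89, unadjusted limma p 0.0457), which rested on 1 to 30 reads per library, DKC1 at -0.54 (SE 0.25, p 0.0469) and WDR12 at -0.59 (SE 0.27, p 0.0436). Below 0 were 47 of 59 (79.7%, against 51.2% of all genes), with a median of -0.22. BYSL and MRTO4 differed between the lines by -0.90 (SE 0.44) and -0.87 (SE 0.44), with unadjusted limma p-values of 0.0613 and 0.0707, so that an effect particular to SCC25 was not shown for either. With the replicate block, DKC1 (unadjusted limma p 0.0339) and MRTO4 (0.0353) were under 0.05, and NOP16 (0.0601), WDR12 (0.0559) and BYSL (0.0569) were not, with a limma adjusted p of 1.00 for each.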

How the data were processed

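The 15 QuantSeq 3′ FWD libraries were trimmed (Cutadapt), aligned to hg38 (HISAT2), counted per gene (featureCounts) and normalised and filtered (limma) by the authors. The strand setting is not given in the sources used here. The authors deposited log2 CPM values with 0.5 reads added, in 1 table of the lines (9 libraries) and 1 of the knockdown (12 libraries, 6 of them shared). No column belonged to another series. Whole reads could be recovered for 100% of values within 0.05 of a read, and the depths given cover counting error only.

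Groups were compared on the log2 values with limma 3.58.1 in R 4.3.3 by lmFit and eBayes with trend = TRUE. Tests were two-sided, with all groups of a table in the fit and Benjamini-Hochberg adjustment over 12995 genes (threshold 0.05). The script was tested on simulated data in which every gene had the same spread beyond counting error and no whole library was shifted. That checks the code and not its power in libraries as uneven as these. The fit had no replicate block. Same-numbered libraries with and without knockdown deviated together (correlations 0.143, 0.462 and 0.402 in SCC25 and 0.514, 0.354 and 0.221 in SCC15 over 6497 genes). In each line, 2 of the 3 -YBX1 libraries correlated best with the +YBX1 library of their own number. The pairs used here rest on the numbers in the labels. A pairing within each line was not fitted, so the SEs and p-values of the knockdown take no account of it.

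Members and lists were chosen with earlier results of these data known. The naming rule took YBX1, 20 anchors, the 5 members highest and the 5 lowest per comparison among those past the threshold without overlap, and, where fewer than 5 passed, those with an unadjusted p under 0.05. Other members were named after their values were seen. The list of 13 mitochondrial mRNAs had 0 genes in the tables. Alternatives were each library left out, a replicate block, only the groups compared, no variance trend, voom on recovered reads, 2 reads added, leaving out the 25% of genes lowest in mean, equal medians and quantile normalization. Positions come from GENCODE on hg38, promoter windows from RefSeq, and 3′ ends were mapped with minimap2 2.31. Figures used matplotlib 3.10.9.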

Additional observations from a re-analysis of the deposited data

How the results depend on the processing

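Of 51 calls on single factors between lines, 18 were lost under at least 1 of 8 other settings (40 of 408 values) and 28 when 1 library was left out (96 of 459 values), and none changed sign. Counts of factors moved by more than 1.5 times with only the compared groups in the fit (SCC15 against OKF6 11 higher, SCC15 against SCC25 18 higher), with no variance trend (SCC25 against OKF6 2 lower), with equal library medians (SCC15 against SCC25 12 higher) and with quantile normalization (SCC15 against SCC25 18 higher and 3 lower). The median SD of the factors was 0.46 in OKF6, 0.27 in SCC15 +YBX1 and 0.13 in SCC25 +YBX1, which the fit of all groups pools. The part of this or of any other cause in the counts was not tested. With 1 library left out, SCC15 against OKF6 gave 9 to 19 higher and 1 to 9 lower, SCC25 against OKF6 6 to 12 and 1 to 7, SCC15 against SCC25 3 to 16 and 3 to 6, and each knockdown comparison and the interaction 0 to 0. With the replicate block, which in the comparisons of lines rests on a shared number alone (correlations -0.207 to 0.260), the counts were 16 higher and 6 lower, 12 and 4, and 9 and 5. In the knockdown comparisons, where both lines shared the effect of a number, it gave 0 and 0 and changed no call at the adjusted threshold. Besides the main fit, the share of all genes called between lines was counted only under equal medians and quantile normalization (given above). The counts between lines under the other settings therefore show no trait of the factors. Depth limits BOP1 and NOP16, at 1 read in at least 1 library.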
